A study of Mus musculus with 6 samples.

Results

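Aminoacyl-tRNA synthetase genes were followed across sorted cells of a mouse T-cell acute lymphoblastic leukaemia (T-ALL). The set held 36 listed genes, of which 20 encode cytosolic and 16 mitochondrial enzymes. They were matched by symbol to the probe sets (groups of array probes for one transcript) that carry a single gene symbol in the platform annotation, and each gene was represented by its probe set with the highest mean over the 6 arrays. By this rule 35 of the 36 genes were measured, 19 cytosolic and all 16 mitochondrial, among 18193 genes in all. Dars, the aspartyl enzyme of the cytosol, had no such probe set and was not analysed here.

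RNA came from MycGFP positive cells (Notch1-deltaE+, CD25+, mycGFP+ splenocytes, 3 arrays) and from MycGFP negative cells (Notch1-deltaE+, CD25+, mycGFP- splenocytes, 3 arrays). Both groups had the genotype Notch1[delta]E mycGFP on the C57BL/6 strain and an age of 12 weeks, and both were taken from the spleen of congenic recipients 4 weeks after transplantation, with sorting by mCherry and GFP. Notch1-deltaE is an activated form of the NOTCH1 receptor, and GFP reports MYC. The design text describes 3 independent leukaemias sorted by GFP, so every value rests on few tumours, and the sources used here do not give the promoter behind Notch1-deltaE. MycGFP positive cells are called initiating cells in the series title, and the question is which transcripts set them apart from MycGFP negative cells.

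Each synthetase joins an amino acid to its tRNA, which gives the ribosome the charged tRNAs it reads. Cytosolic and mitochondrial translation use separate enzymes for most amino acids, all encoded in the nucleus, while Gars and Kars each encode the glycyl and lysyl enzymes of both compartments. The enzymes fall into 2 structurally unrelated classes, and several cytosolic ones are held with scaffold proteins in a large multi-synthetase complex. MYC is known to drive genes of protein synthesis, and the transcription factor ATF4 is known to raise many cytosolic synthetase genes when amino acids are short.

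Myc transcript, the check of the sort, had intensities of 2628, 3390 and 2274 on MycGFP positive arrays 1 to 3, against 801, 1135 and 1303 on MycGFP negative arrays 1 to 3. The groups did not overlap (log2 difference 1.37, SE 0.24, limma adjusted p = 0.0329). Array medians over all 45101 probe sets were 30.5 to 31.4 on positive and 31.7 to 32.7 on negative arrays. The 3' to 5' ratio of the Gapdh control probe sets, which rises as RNA degrades, was 1.48 to 1.58 on positive and 1.58 to 1.89 on negative arrays. The same ratio for actin was 1.72 to 1.85 on positive and 1.54 to 1.87 on negative arrays, and the part of RNA quality in the results was not tested. The intensities of 7 T lineage genes summed to 44230 to 51130 on positive and 52570 to 56340 on negative arrays, and Il2ra, which encodes CD25, lay at 5396 or above on all 6 arrays. Sums for 8 myeloid genes ranged from 164 to 2635 on positive and from 242 to 10400 on negative arrays, the highest being negative array 2. For 5 B cell genes the sums were 279 to 616 on positive and 267 to 753 on negative arrays. For 4 erythroid genes they were 67.0 to 86.9 on positive and 70.4 to 97.8 on negative arrays, and for 3 NK cell genes 125 to 172 on positive and 179 to 237 on negative arrays. No marker gene was listed at 0. Pax5, Cd14, Itgam, Adgre1, Hba-a1, Ncr1 and Klrk1 stayed below the array medians on all arrays, while the other measured markers exceeded them on at least 1 array. Among these, S100a8 lay at 42.7 to 871 on positive and 26.2 to 4467 on negative arrays. Cd79b lay at 44.0 to 213 on positive and 122 to 645 on negative arrays, and Prf1 at 108 to 156 and 163 to 207. The B cell gene Blk was higher on positive arrays, at 92.3 to 182, than on negative arrays, at 21.8 to 77.5 (limma adjusted p = 0.159). The part of these cell types in the results was not tested, and in sorted bulk RNA fewer cells expressing a gene and less RNA per cell cannot be told apart.

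Of the 35 measured genes, 12 rose and none fell by limma (two-sided, Benjamini-Hochberg over all genes, threshold 0.05), while 4.62% of all genes rose and 1.51% fell. Of the cytosolic genes 8 of 19 rose, at a median log2 difference of 0.96, and of the mitochondrial genes 4 of 16 rose, at a median of 0.85, against a median of 0.01 over all genes. Gars and Kars, which encode enzymes of both compartments, were counted as cytosolic alone, and both rose. By unadjusted p under 0.05, 25 of the 35 were higher and 0 were lower, against 14.7% and 7.35% of all genes. In 25 genes all 3 positive arrays lay above all 3 negative arrays, 15 cytosolic and 10 mitochondrial, a separation that 17% of all genes showed. A log2 difference above 0 was found for all 19 cytosolic and for 12 of the 16 mitochondrial genes, and for 51.6% of all genes. How far the compartments differed was not tested, since both medians describe genes measured on the same arrays.

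**Figure D1:**
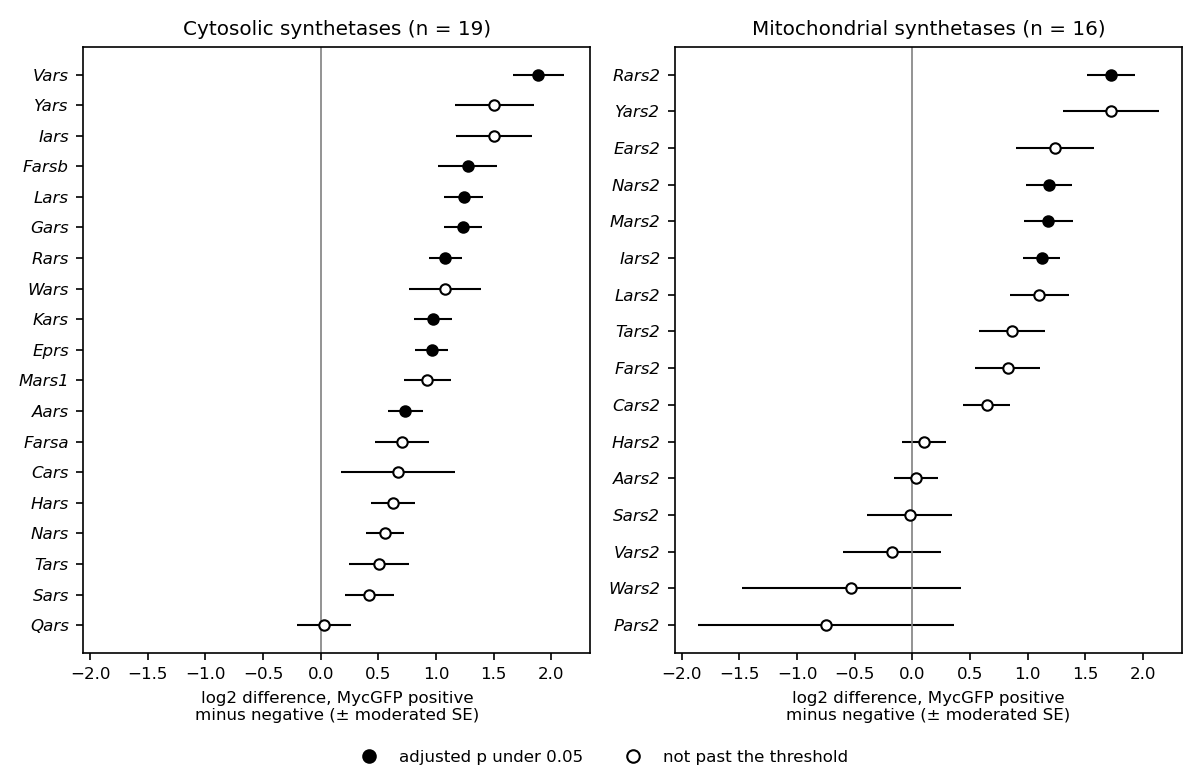
Log2 difference in intensity (x axis, MycGFP positive minus negative, n = 3 arrays each) for the 19 cytosolic (left) and 16 mitochondrial (right) synthetase genes (y axis), with bars of limma's moderated SE and filled points where the adjusted p is under 0.05. The filled points, 8 cytosolic and 4 mitochondrial, all lie to the right of 0, and the widest bars belong to Pars2 and Wars2.

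The number of calls changed when single arrays were left out, which also left fewer arrays to compare. Without MycGFP positive array 2 no gene of any kind passed in limma (0.0% of all genes), the smallest adjusted p being 0.0591, although by unadjusted p 25 synthetase genes were higher, against 12.1% of all genes. Without positive array 3 no synthetase passed, against 0.572% of all genes, and by unadjusted p 24 were higher, against 12.9%. Without positive array 1 only Vars and Rars2 passed among the 35, against 0.956% of all genes, and without negative array 2 Mars2 alone passed, against 0.72%. Without negative array 1 the count was 12, against 4.74% of all genes, and without negative array 3 it was 9, against 3.22%. With each array centred on its median over the 18193 genes, 8 of the 35 rose, against 2.76% of all genes. That centring lowered every log2 difference alike, for Aars from 0.73 to 0.58, and Aars, Farsb, Kars and Mars2 no longer passed. With quantile normalization also 8 rose, against 2.8%, and Aars, Farsb, Mars2 and Nars2 no longer passed. Over all genes the split was 840 higher and 275 lower as deposited, 502 and 381 after centring, and 510 and 383 after quantile normalization. With only the 9096 genes above the median level kept, 17 of 34 synthetase genes rose, against 11.2% of those genes. With the array number as a block the count was 14 of 35 against 5.75% of all genes: Aars (adjusted p = 0.0849) and Farsb (0.0574) no longer passed, and Iars (0.0475), Yars (0.0416), Lars2 (0.0416) and Yars2 (0.0428) did.

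Among the cytosolic enzymes, Vars, which charges valine, showed the largest rise. Its intensity was 386, 255 and 260 on MycGFP positive arrays 1 to 3, against 88.9, 66.6 and 85.5 on MycGFP negative arrays 1 to 3. The lowest positive array was thus well above the highest negative one, and Vars was 3.70-fold higher (log2 difference 1.89, SE 0.22, limma adjusted p = 0.0152). Folds throughout are antilogs of the log2 difference.

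The enzymes of the multi-synthetase complex include those for arginine, leucine, lysine and, in a single bifunctional protein encoded by Eprs, glutamate and proline. Rars had 1880, 1940 and 1939 on positive arrays, against 799, 897 and 1047 on negative arrays, 2.11-fold higher (limma adjusted p = 0.0180). The positive arrays agreed closely for Rars, with a mean of 1920 ± 34.2, while the negative arrays averaged 914 ± 125 (SD, n = 3 each). Lars had 1081, 883 and 958 on positive arrays, against 476, 421 and 347 on negative arrays, 2.36-fold higher (limma adjusted p = 0.0189). Eprs had 898, 1096 and 966 on positive arrays, against 565, 468 and 485 on negative arrays, 1.95-fold higher (limma adjusted p = 0.0233). For both genes the groups stood apart, with negative array 1 the highest of its group. Kars had 4303, 3999 and 3931 on positive arrays, against 2509, 1756 and 2034 on negative arrays, 1.96-fold higher (limma adjusted p = 0.0309). Kars also serves mitochondria, and its call was among those lost when each array was centred on its median (limma adjusted p = 0.0512). It passed in 8 of 14 alternative settings.

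Gars, the other gene that serves both compartments, had 1545, 1250 and 1131 on positive arrays, against 601, 503 and 560 on negative arrays. Its groups were separate and it was 2.35-fold higher (log2 difference 1.23, SE 0.16, limma adjusted p = 0.0182). Phenylalanine is charged in the cytosol by an enzyme of paired alpha and beta subunits, encoded by Farsa and Farsb. Farsb had 1017, 979 and 925 on positive arrays, against 342, 319 and 595 on negative arrays, 2.42-fold higher (limma adjusted p = 0.0441). Negative array 3 lay nearest to the positive arrays, and Farsb passed in 4 of 14 alternative settings. Farsa had 409, 306 and 313 on positive arrays, against 219, 156 and 265 on negative arrays, without passing (log2 difference 0.70, limma adjusted p = 0.148). For Farsa, 3 other probe sets had the opposite sign, as given below. Aars, which charges alanine, had 366, 345 and 283 on positive arrays, against 186, 192 and 218 on negative arrays, 1.66-fold higher (limma adjusted p = 0.0475). Of the cytosolic calls it was nearest to the threshold, and it passed in 1 of 14 alternative settings.

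**Figure D2:**
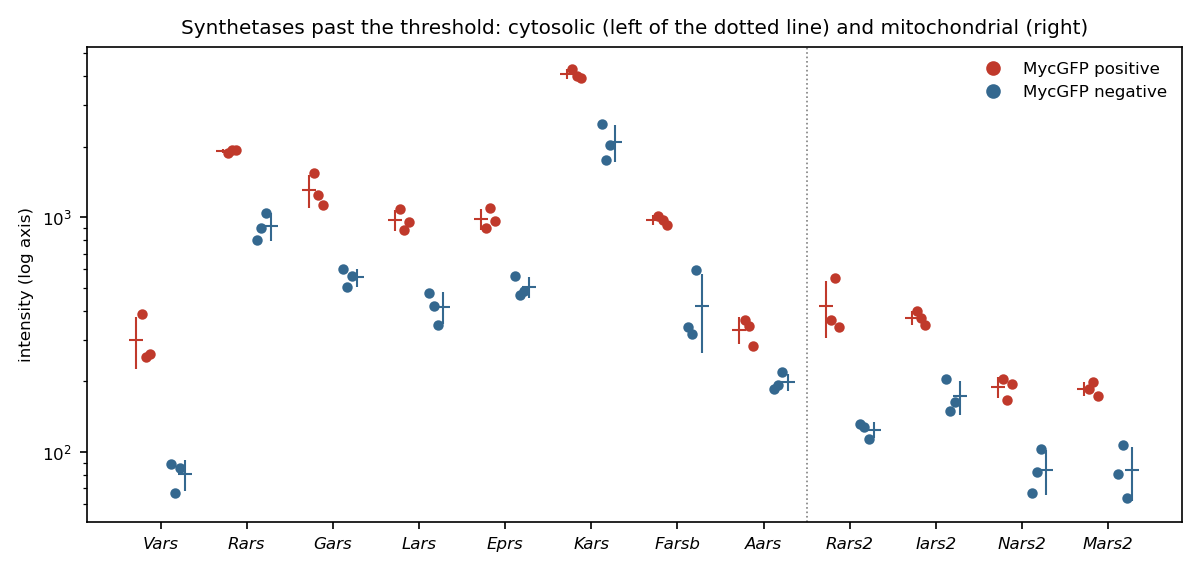
Intensity on each array (y axis, log scale) of the 12 synthetase genes at an adjusted p under 0.05 (x axis), with MycGFP positive arrays left of MycGFP negative arrays for each gene, and crosses with bars for the mean and SD (n = 3). In each gene the positive points lie above the negative points, and levels of different genes come from different probes and are not to be compared.

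Other cytosolic genes missed the threshold with differences of similar size. Yars, which charges tyrosine, had 447, 439 and 304.5 on positive arrays, against 226, 107 and 108 on negative arrays (log2 difference 1.51, SE 0.34, limma adjusted p = 0.0582). Iars, the isoleucyl enzyme of the complex, had 1781, 970 and 845 on positive arrays, against 410, 507 and 310 on negative arrays (2.83-fold higher by the means of log2 values, limma adjusted p = 0.0549). In both genes the groups were separate but the arrays within a group spread widely, with negative array 1 high for Yars and positive array 1 high for Iars. Mars1, the methionyl enzyme of the complex, had 2179, 1911 and 1800 on positive arrays, against 932, 1348 and 870 on negative arrays (log2 difference 0.93, limma adjusted p = 0.0537). Wars, Nars and Hars, for tryptophan, asparagine and histidine, also had separate groups, at log2 differences of 1.08, 0.56 and 0.63 and limma adjusted p of 0.105, 0.108 and 0.116.

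In 4 cytosolic genes the groups overlapped. Qars, which charges glutamine and belongs to the complex, had 2628, 2555 and 2794 on positive arrays, against 2416, 2015 and 3638 on negative arrays. Its highest and lowest values were both on negative arrays, and its log2 difference of 0.03 (SE 0.23, limma adjusted p = 0.968) changed sign under other scalings, at -0.12 with arrays centred on their median. Sars, Tars and Cars, for serine, threonine and cysteine, had log2 differences of 0.42, 0.51 and 0.67 and limma adjusted p of 0.314, 0.333 and 0.523. Cars lay near the array median on negative arrays 2 and 3, at 33.3 and 29.4, so its level there may not be above background.

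Among the mitochondrial enzymes, Rars2, the arginyl enzyme, rose most. Its intensity was 366, 550 and 342 on MycGFP positive arrays, against 132, 128 and 113 on MycGFP negative arrays. Positive array 2 was the highest, the negative arrays lay close together, and Rars2 was 3.30-fold higher (log2 difference 1.72, SE 0.21, limma adjusted p = 0.0162). Iars2, for isoleucine, had 397, 374 and 348 on positive arrays, against 205, 149 and 164 on negative arrays, 2.18-fold higher (limma adjusted p = 0.0221). Nars2, for asparagine, had 204, 167 and 196 on positive arrays, against 66.9, 82.0 and 103 on negative arrays, 2.27-fold higher (limma adjusted p = 0.0289). Both had separate groups with positive values close to each other. Mars2, for methionine, had 185, 199 and 173 on positive arrays, against 80.3, 107 and 63.9 on negative arrays, 2.27-fold higher (limma adjusted p = 0.0333). Its mean was 186 ± 13.3 in positive and 83.7 ± 21.8 in negative cells (SD, n = 3 each), so the spread lay mainly in the negative arrays. Mars2 passed in 5 of 14 alternative settings.

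Yars2, the mitochondrial tyrosyl enzyme, had the largest difference of the mitochondrial genes that did not pass. It had 561, 357 and 433 on positive arrays, against 239, 128 and 78.9 on negative arrays (log2 difference 1.72, SE 0.42, limma adjusted p = 0.0690). Lars2, for leucine, had 1090, 846 and 1131 on positive arrays, against 422, 373 and 672 on negative arrays (log2 difference 1.10, SE 0.26, limma adjusted p = 0.0629). Both had separate groups and passed with the array number as a block. Ears2, which charges mitochondrial tRNAs with glutamate, had 224, 120 and 190 on positive arrays, against 49.5, 98.4 and 79.4 on negative arrays (log2 difference 1.24, limma adjusted p = 0.0912). Tars2, Fars2 and Cars2, for threonine, phenylalanine and cysteine, also had separate groups, at log2 differences of 0.86, 0.83 and 0.64 and limma adjusted p of 0.141, 0.153 and 0.128.

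The remaining 6 mitochondrial genes had overlapping groups. Aars2, for alanine, had 142, 117 and 133 on positive arrays, against 161, 121 and 105 on negative arrays (log2 difference 0.03, limma adjusted p = 0.953). Hars2, for histidine, and Sars2, for serine, had log2 differences of 0.10 and -0.02 (limma adjusted p = 0.826 and 0.984). Aars2 and Hars2 changed sign under other scalings, at -0.12 and -0.05 with arrays centred on their median, and Sars2 when single arrays were left out. Vars2, for valine, had 124, 199 and 214 on positive arrays, against 306, 108 and 230 on negative arrays (log2 difference -0.18, SE 0.43, limma adjusted p = 0.875). Its negative arrays spanned the whole positive range.

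For Pars2 and Wars2 1 array decided the value. Pars2, for proline, had 136, 107 and 102 on positive arrays, against 73.4, 1275 and 76.2 on negative arrays. Negative array 2, which also held the highest myeloid sum, set the log2 difference of -0.75 (SE 1.11, limma adjusted p = 0.776), which was 0.61 without it (limma adjusted p = 0.170). The part of the myeloid transcripts in this value was not tested. Wars2, for tryptophan, had 100, 25.9 and 34.9 on positive arrays, against 262, 29.9 and 34.7 on negative arrays. The arrays numbered 1 stood out in both groups and the rest lay near the array median, and its log2 difference of -0.53 was 0.48 without negative array 1 (limma adjusted p = 0.732).

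**Figure D3:**
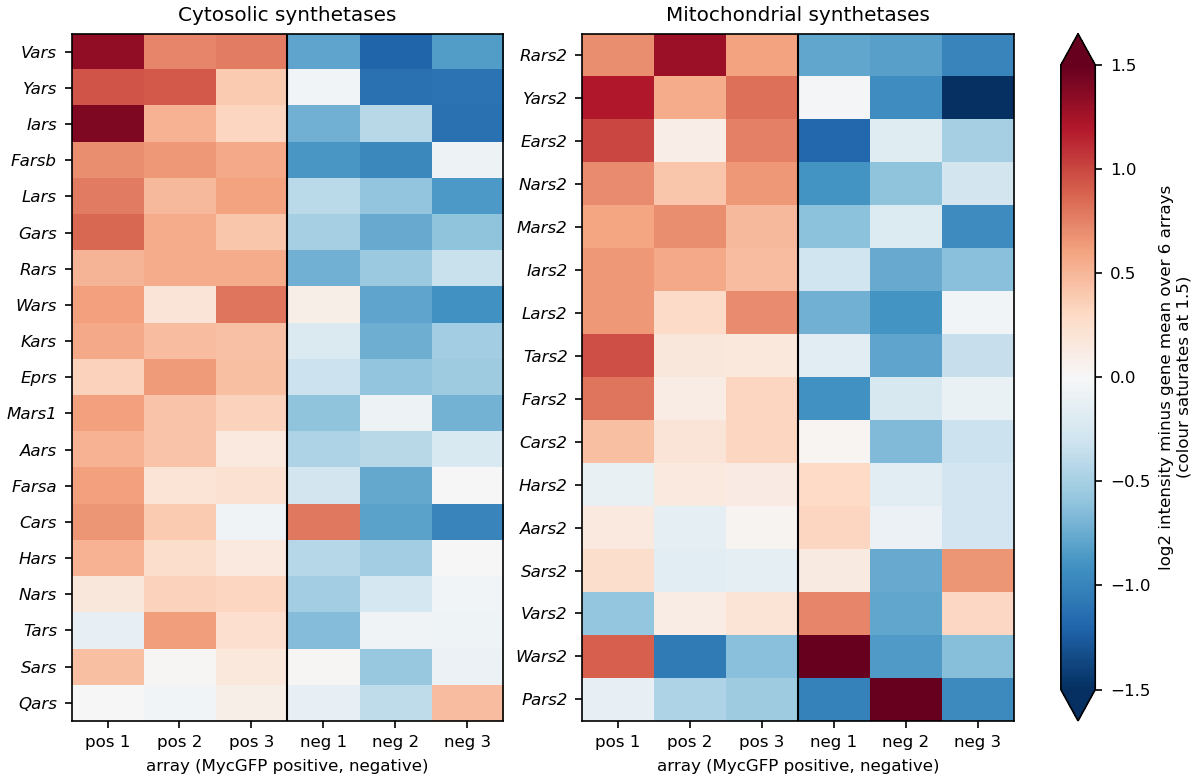
Log2 intensity minus the gene's mean over the 6 arrays (colour, saturating at 1.5) for the 19 cytosolic (left) and 16 mitochondrial (right) synthetase genes (rows, by falling log2 difference) on the MycGFP positive and negative arrays (columns). Most rows are red on the positive and blue on the negative arrays, and Pars2 on negative array 2 and Wars2 on negative array 1 stand out near the bottom right.

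The arrays of a group did not contribute alike. Relative to each gene's own mean, the median cytosolic gene lay at 0.62, 0.46 and 0.34 (log2) on positive arrays 1 to 3 and at -0.43, -0.59 and -0.52 on negative arrays 1 to 3. The median mitochondrial gene lay at 0.66, 0.16 and 0.32 on positive arrays and at -0.23, -0.71 and -0.34 on negative arrays. Positive array 1 was the highest of its group for 13 of 19 cytosolic and 11 of 16 mitochondrial genes, that is 68.4% and 68.8%, against 44.4% of all genes. On negative array 2, 0 cytosolic genes and 1 mitochondrial gene, Pars2, lay above their own mean.

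By enzyme class, 7 of the 19 measured class I genes rose, at a median log2 difference of 1.10, and 5 of the 16 class II genes rose, at a median of 0.67, against 4.62% of all genes. Eprs, whose protein joins a class I and a class II enzyme, was counted with class I. With the array number as a block 11 class I and 3 class II genes passed, against 5.75% of all genes. In the cytosol the class medians were 1.08 and 0.70, and among mitochondrial genes 1.12 and 0.10. Of the 6 mitochondrial genes with overlapping groups all but Wars2 and Vars2 were class II. Within the cytosol, 4 of the 7 measured enzymes of the multi-synthetase complex rose, at a median log2 difference of 0.97, and 4 of the 12 others rose, at a median of 0.72, against the same 4.62% of all genes. The difference between classes, and between enzymes inside and outside the complex, was not tested.

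Cytosolic and mitochondrial enzymes for the same amino acid were set side by side in 17 pairs, Eprs being paired with both Ears2 and Pars2, and Fars2 with both Farsa and Farsb. In the arginine pair both genes rose. In 6 pairs the cytosolic gene alone passed, in 3 the mitochondrial gene alone, and in 7 neither, where 4.62% of all genes rose. Eprs was counted among the 6 in both of its pairs. The log2 difference was larger for the cytosolic gene in 10 of the 17 pairs. For each pair the log2 ratio of the cytosolic to the mitochondrial gene on each array was compared between the groups. The test was a two-sided exact permutation test that ignored array numbers, which with 3 arrays against 3 cannot go below p = 0.10. No pair could therefore pass a threshold of 0.05, and the values are given as a description. The valine, alanine, asparagine and arginine pairs reached that smallest value (adjusted p = 0.425 over the 17 pairs), and the differences of these 4 pairs ran in both directions. The Vars to Vars2 ratio was higher in positive cells by 2.06 (log2, SE 0.55) and the Aars to Aars2 ratio by 0.70 (SE 0.28). The Nars to Nars2 and Rars to Rars2 ratios were lower in positive cells, at -0.63 (SE 0.14) and -0.64 (SE 0.27). A ratio of this kind shows unequal change and not which gene changed, since it compares probes on the same array. The size of the gap between Nars and Nars2 depended on the probe set. Another Nars probe set had a log2 difference of 0.95, against 0.56 for the one used here. With all probe sets averaged, the log2 differences were 0.75 for Nars and 0.94 for Nars2.

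**Figure D4:**
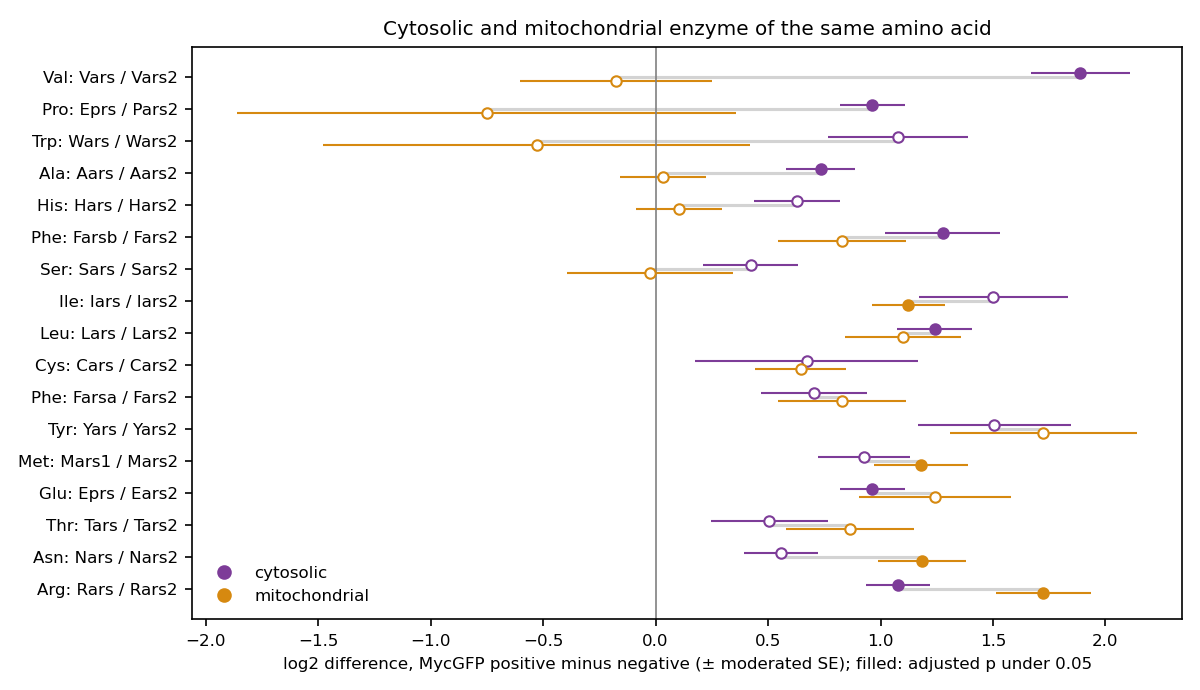
Log2 difference (x axis, MycGFP positive minus negative, n = 3 arrays each, bars for limma's moderated SE) of the cytosolic (purple) and mitochondrial (orange) synthetase gene for each of 17 pairs (y axis, labelled by amino acid), with filled points at an adjusted p under 0.05. The pairs run from valine at the top, where Vars lies at 1.89 and Vars2 at -0.18, to arginine at the bottom, where Rars lies at 1.08 and Rars2 at 1.72.

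Other probe sets existed for 23 of the 35 genes, 37 in all. In a fit over all 34945 named probe sets, 9 of these 37 rose and 0 fell (limma, adjusted p under 0.05, with 1 lower by unadjusted p), where 4.76% of all named probe sets rose and 2.16% fell. They brought 4 genes past the threshold that the brightest probe set had not, so that 16 of 35 genes had at least 1 probe set that rose, against 6.85% of all genes, and genes with several probe sets had more chances to be counted. Another probe set of Iars had a log2 difference of 1.45 (SE 0.15, adjusted p = 0.0122 in limma) and another of Nars 0.95 (SE 0.14, adjusted p = 0.0206). For Wars 2 further probe sets passed, at 1.32 and 1.02, and for Fars2 the other one, at 1.07. Seen by these probe sets, the isoleucyl, asparaginyl and tryptophanyl genes of the cytosol stood with those that rose. The opposite sign was found in 7 probe sets of 5 genes, Cars, Farsa, Lars2, Mars2 and Wars2. For Wars2 the other probe set had a log2 difference of 1.31 (SE 0.43, limma adjusted p = 0.132), against -0.53 for the main one. Its mean intensities were 51.0 in positive and 19.2 in negative cells. The other 3 of Farsa had log2 differences of -0.69, -0.59 and -0.32, and their average with the main one gave -0.22 (limma adjusted p = 0.498). For Farsa the direction thus depended on the probe set. The second Mars2 probe set, at mean intensities of 51.3 in positive and 52.7 in negative cells, had a log2 difference of -0.03, and with both averaged Mars2 no longer passed (limma adjusted p = 0.0617).

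Promoters of 26 of the 35 genes, 12 cytosolic and 14 mitochondrial, were found in the RefSeq table of build GRCm38.p6. Each ran from 250 bases before to 50 bases after a listed transcription start, and there were 27 in all. A gene was counted if any of its promoters held the letters, while shares of the whole table are per promoter. Cars, Hars, Lars, Nars, Rars, Vars, Wars, Hars2 and Pars2 had no promoter there. The counts thus leave out Vars, Rars and Lars, which rose. Both strands were searched. The E-box CACGTG, the letters bound by MYC and its partner MAX, occurred for 4 of the 12 cytosolic genes (Aars, Farsb, Iars, Tars). It occurred for 1 of the 14 mitochondrial genes (Ears2), and in 7.15% of all 32851 promoters in the table. TGATGNAA, the core of the composite element bound by ATF4 with C/EBP proteins, occurred for 5 of the 12 cytosolic genes (Aars, Gars, Iars, Tars, Yars). It occurred for 0 of the 14 mitochondrial genes and in 3.97% of all promoters. Of the 9 genes that rose and had a promoter, 2 held an E-box and 2 held TGATGNAA. Among the 17 that did not pass, 3 held the first and 3 the second. CACGCG, a variant E-box, was found for 5 cytosolic and 2 mitochondrial genes (9.27% of all promoters), and TGACGT, the core of a CRE, for 1 and 3 (7.51%). CCGGAAG, an ETS site, was found for 5 and 4 (8.86%), and the palindromic NRF1 motif for none of either (0.971%). No match of one set of letters overlapped a match of another in these promoters. A match is a description of letters and not evidence of binding.

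The 160 bases before the start are printed for 4 cytosolic genes that hold these letters there and for Rars2, the mitochondrial gene with the largest rise, which holds neither. All are given 5′ to 3′ on the gene's strand, from RefSeq build GRCm38.p6, with matches to CACGTG or to TGATGNAA (seen as its reverse complement TTNCATCA) in capitals.
Aars, chr8:111033682-111033841, plus strand: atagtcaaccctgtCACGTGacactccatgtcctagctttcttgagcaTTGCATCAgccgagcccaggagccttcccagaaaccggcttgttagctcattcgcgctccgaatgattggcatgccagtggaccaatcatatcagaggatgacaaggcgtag
Iars, chr13:49681970-49682129, plus strand: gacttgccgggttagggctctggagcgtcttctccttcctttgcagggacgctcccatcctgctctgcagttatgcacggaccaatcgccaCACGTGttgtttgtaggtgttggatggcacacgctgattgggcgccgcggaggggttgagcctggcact
Farsb, chr1:78488898-78489057, minus strand: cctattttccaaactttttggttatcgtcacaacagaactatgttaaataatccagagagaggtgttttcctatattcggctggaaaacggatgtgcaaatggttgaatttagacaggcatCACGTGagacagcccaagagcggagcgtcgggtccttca
Gars, chr6:55037841-55038000, plus strand: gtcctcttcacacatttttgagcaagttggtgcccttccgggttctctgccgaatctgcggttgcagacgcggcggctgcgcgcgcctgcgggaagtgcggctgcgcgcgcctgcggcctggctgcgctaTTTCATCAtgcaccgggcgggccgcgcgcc
Rars2, chr4:34614797-34614956, plus strand: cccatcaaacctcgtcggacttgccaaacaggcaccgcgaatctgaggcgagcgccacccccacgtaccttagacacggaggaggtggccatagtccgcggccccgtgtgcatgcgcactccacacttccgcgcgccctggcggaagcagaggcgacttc
In Aars both sets of letters lie in the printed stretch, and the E-boxes of Iars and Farsb begin 69 and 39 bases before the start. The TGATGNAA match of Gars begins 30 bases before it, while that of Iars lies after the start and is not printed.

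Genes that work with the synthetases were taken from lists of tRNA charging and supply. None of the 3 scaffold genes of the multi-synthetase complex passed. All 3 had every positive array above every negative array, against 17% of all genes. All 3 were also higher at an unadjusted p under 0.05 (limma), against 14.7% of all genes. Eef1e1 had 3509, 1867 and 1986 on positive arrays, against 1176, 729 and 931 on negative arrays (log2 difference 1.34, SE 0.30, limma adjusted p = 0.0580, and 0.0295 with the array number as a block). Aimp1 and Aimp2 had log2 differences of 0.77 and 1.47 (limma adjusted p = 0.143 and 0.144).

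Of 5 measured genes for editing and release of wrongly charged tRNA, Aarsd1 rose, against 4.62% of all genes. Aarsd1, which clears mischarged alanine tRNA, had 319, 189 and 189 on positive arrays, against 77.0, 73.0 and 70.3 on negative arrays, 3.07-fold higher (limma adjusted p = 0.0221). Its negative arrays lay within a narrow range and well below the positive ones. Mitochondria lack a glutaminyl enzyme and make this charged tRNA from the product of Ears2 with an amidotransferase, 1 subunit of which is encoded by Qrsl1. Of 7 genes for mitochondrial charging, Qrsl1 and Elac2, which trims the 3' ends of tRNAs, rose. Qrsl1 had 121, 104 and 67.3 on positive arrays, against 37.9, 29.8 and 33.0 on negative arrays, 2.83-fold higher (limma adjusted p = 0.0280), with negative levels near the array median. Elac2 was 1.90-fold higher (limma adjusted p = 0.0307).

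Of 31 genes for tRNA maturation and export, which include Elac2, 11 rose, at a median log2 difference of 0.93, and 0 fell (limma, with 0 lower by unadjusted p), where 4.62% of all genes rose and 1.51% fell. Nsun2, a tRNA cytosine methyltransferase, had 1260, 941 and 891 on positive arrays, against 269, 261 and 316 on negative arrays, 3.62-fold higher (limma adjusted p = 0.0106). Pus7, a pseudouridine synthase, was 4.15-fold higher (limma adjusted p = 0.0174). Trmt6 and Trmt61a, the subunits of an adenosine methyltransferase for tRNA, were 2.80-fold and 2.16-fold higher (limma adjusted p = 0.0222 and 0.0180). Trmt61a lay at the array median on negative arrays, at 30.5 to 34.1, so its level there may not be above background. All 4 had separate groups. Of 20 genes for RNA polymerase III and its factors, which transcribe tRNA genes, 2 rose, against 4.62% of all genes, at a median log2 difference of 0.46. These were Polr3e, a polymerase subunit, at a log2 difference of 1.32 (limma adjusted p = 0.0408), and Gtf3c6, a subunit of TFIIIC, at 2.24-fold higher (limma adjusted p = 0.0376, and 0.0583 with the array number as a block).

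Of 28 genes of the amino acid response linked to ATF4, 5 rose and 0 fell, at a median log2 difference of 0.11 (limma, with 9 higher and 1 lower by unadjusted p). The share that rose was 17.9%, against 4.62% of all genes, whose median was 0.01. In the fit on genes above the median level alone 11.2% of genes rose, and the lists of helper and response genes were not counted there. The genes with the smallest adjusted p were Shmt2, Phgdh, Slc7a5 and Mthfd2, which act in serine and folate metabolism and amino acid uptake. Mthfd2 had 2788, 2934 and 2369 on positive arrays, against 1136, 593 and 1072 on negative arrays, 2.99-fold higher (limma adjusted p = 0.0319).

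**Figure D5:**
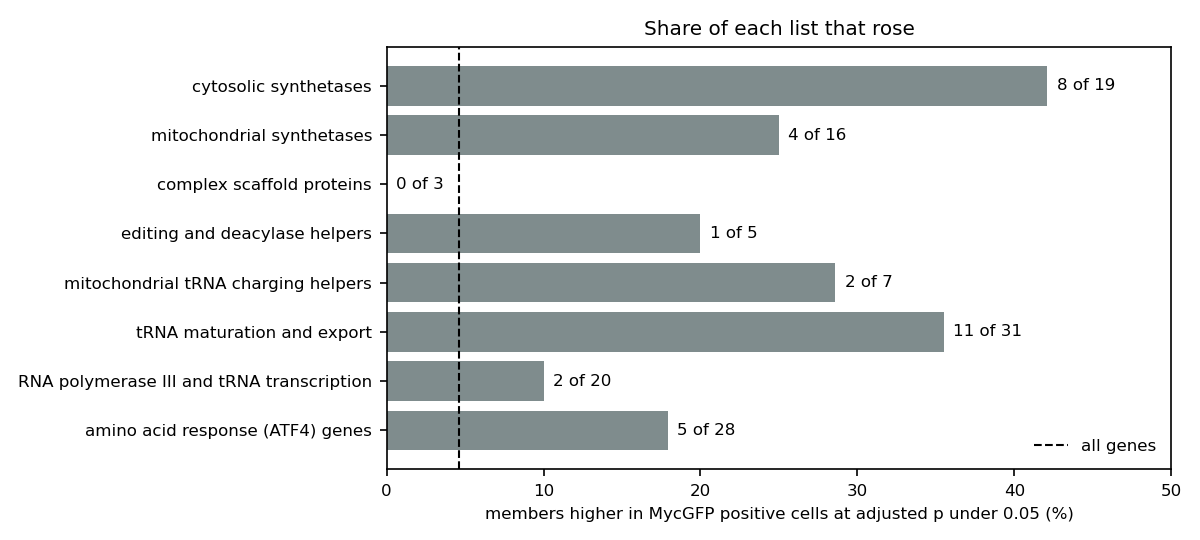
Share of measured genes that rose in MycGFP positive cells by limma's adjusted p (x axis, percent, with counts beside the bars) for the synthetases of each compartment and 6 further lists (y axis), with a dashed line at the 4.62% of all genes. The bars of the cytosolic synthetases, at 42.1%, and of tRNA maturation and export, at 35.5%, are the longest, and Elac2 and Trnt1 stand on 2 of the lists.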

How the data were processed

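The authors deposited intensities per probe set on a linear scale, and RMA is named, without a version, by the submitters' processing notes. All values lay above 0, so log2 was taken. RMA brings all arrays to one scale, which hides any difference in RNA content between cells. RNA (5 ng per sample) was amplified before labelling, per the labels' protocols, which adds noise to dim genes. A single symbol was listed for 34945 of the 45101 probe sets, several for 932 and none for 9160, and 64 were controls. Through their Entrez identifiers 34741 were matched to RefSeq names (GRCm38.p6). No array column was left unmapped.

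The 2 groups were fitted with lmFit and eBayes of limma 3.58.1 under R 4.3.3, with Benjamini-Hochberg adjustment over 18193 genes, a threshold of 0.05 and 4 residual and 2.17 prior degrees of freedom. The fit was also run on simulated arrays with independent noise, and the outcome is not given here. That run cannot speak for the deviations shared by arrays of the same number, given below. No detection calls were used, and the number of arrays limits precision. Members and lists were chosen with earlier results of these data known. Every member could be named, with array values for those past the threshold, their partner in the other compartment and the extremes of the rest; of other lists, up to 4 called genes. The pair test and the promoter motifs were added after values were seen.

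Arrays of the same number deviated together from their group means, with r = 0.38, 0.209 and 0.388 across genes, and those of different number with r = -0.32 to -0.0319; no label says that a number marks 1 leukaemia. By these correlations the numbers were taken to pair the arrays in the block setting alone. The main fit and the permutation test of gene pairs treated the arrays as unpaired. Every p rests on the variation among these 6 sorted samples alone. The settings tried instead were the block, leaving out each array, the mean of all probe sets, no cross-hybridising probe sets, 2 scalings, a filter on dim genes, another variance model and array weights.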

Additional observations from a re-analysis of the deposited data

How the results depend on the processing

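Across 14 alternative settings no synthetase passed the threshold in the lower direction, and the median log2 difference stayed above 0, at 0.81 to 1.05 for cytosolic and 0.52 to 0.99 for mitochondrial genes. Leaving out single arrays gave 0 to 8 cytosolic and 0 to 4 mitochondrial genes that rose, with mitochondrial medians of 0.61 to 0.99, and 0 to 862 higher and 0 to 238 lower genes over the whole array. Centring each array on its median moved the median of all genes to -0.14 and gave 5 cytosolic genes at a median of 0.81, with 502 genes higher on the whole array. Quantile normalization gave 2 mitochondrial genes at a median of 0.52, with 510 genes higher on the whole array, and averaging all probe sets gave a mitochondrial median of 0.58. Of 489 values of single synthetases under the alternatives, 370 kept direction and side of the threshold, 70 lost a call, 25 gained one and 24, in 8 genes that had not passed, changed sign. With single arrays left out the values were -0.16 to 0.27 for Qars, -0.10 to 0.20 for Aars2, -0.016 to 0.28 for Hars2, -1.45 to 0.61 for Pars2, -0.41 to 0.30 for Sars2, -0.61 to 0.14 for Vars2 and -1.11 to 0.48 for Wars2. With arrays centred on their median, Qars, Aars2 and Hars2 were at -0.12, -0.12 and -0.047, and with quantile normalization at -0.0053, -0.30 and -0.17. Averaging all probe sets gave -0.22 for Farsa and 0.39 for Wars2, and array weights gave 0.035 for Vars2. The cause of these changes was not tested. With the replicate block 8 cytosolic and 6 mitochondrial genes rose, at unchanged medians of 0.96 and 0.85, with 1047 genes higher and 354 lower on the whole array, and beyond the calls named above it changed none of the 35 synthetases. Wars2 had no value among genes above the median level. Signal near the array median limits what Cars and Wars2 can show.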
